A study of Mus musculus with 6 samples.

Results

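The 7 enzymes of the pentose phosphate pathway were followed in liver RNA of control mice (Ctrl) and of mice lacking Fam210a in hepatocytes (Fam210aHKO). The genes were matched by name among the 54532 genes of the count table, and each occurred there once: G6pdx, Pgls and Pgd of the oxidative arm, and Rpia, Rpe, Tkt and Taldo1 of the non-oxidative arm. All 7 passed the filter on low counts, which 13706 genes passed. The study holds 6 libraries, 3 per group, from whole liver at an age of 5 weeks. The driver of the hepatocyte-specific deletion, the alleles of the control animals, their strain and whether each library is 1 animal are not stated in the labels. P-values therefore measure the spread between these libraries, some of it possibly technical. The label for genotype names Fam210a for Fam210aHKO replicate 1 alone and other gene numbers for replicates 2 and 3, so the groups follow the sample titles.

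The pentose phosphate pathway branches from glycolysis at glucose 6-phosphate. Its oxidative arm yields NADPH, the reducing agent of fatty acid and cholesterol synthesis and of glutathione and thioredoxin recycling, together with ribulose 5-phosphate. Its non-oxidative arm is reversible, supplies ribose 5-phosphate for nucleotides and returns surplus carbon to glycolysis. In liver the oxidative arm is known for its response to feeding and for supplying lipid synthesis.

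Pgd and Tkt rose in the knockout livers, and the other 5 enzymes were not called. The share of all tested genes called higher at an adjusted p under 0.05 (edgeR quasi-likelihood test, Benjamini-Hochberg adjustment over all tested genes) was 14.0%, and 13.5% were called lower, against 2 and 0 of the 7 (27.5% of tested genes were called in either direction). With the replicate number as a block the same 2 were called higher and 0 lower, beside 17.8% and 18.0% of tested genes, and with the legacy form of the quasi-likelihood test again 2 and 0, beside 13.9% and 13.4%. At an unadjusted p under 0.05, 1 of the 7 was lower (Rpe) and the same 2 were higher, beside 19.2% and 19.6% of tested genes. The median log2 fold change of the 7 was 0.05, beside 0.02 over all tested genes.

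The promoters of Pgd and Tkt are shown because these were the members that rose. RefSeq windows (GRCm38.p6) were found for all 7 genes, 8 windows in all since Pgd has a second start, and the 250 bases before each start were searched. The stretches below run 5′ to 3′ along each gene's strand, and capitals mark GC boxes (GGGCGG) and CCAAT boxes (CCAAT), either strand. That of Pgd lies on the minus strand at chr4:149166708-149166955 and ends 2 bases before the start site, since GENCODE annotates those bases as UTR, and 64 of its bases lie in an exon of a non-coding Pgd transcript of the same annotation. That of Tkt lies on the plus strand at chr14:30548881-30549130, directly before the start of the coding transcript Tkt-201. All 250 bases lie within the GENCODE gene, inside the non-coding transcript Tkt-203, which starts upstream, and 129 of them are exon of it.
Pgd: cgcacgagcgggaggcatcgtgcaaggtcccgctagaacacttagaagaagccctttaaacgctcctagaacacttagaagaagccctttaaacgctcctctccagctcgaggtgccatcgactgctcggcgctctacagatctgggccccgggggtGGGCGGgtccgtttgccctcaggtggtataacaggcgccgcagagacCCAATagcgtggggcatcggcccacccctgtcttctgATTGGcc
Tkt: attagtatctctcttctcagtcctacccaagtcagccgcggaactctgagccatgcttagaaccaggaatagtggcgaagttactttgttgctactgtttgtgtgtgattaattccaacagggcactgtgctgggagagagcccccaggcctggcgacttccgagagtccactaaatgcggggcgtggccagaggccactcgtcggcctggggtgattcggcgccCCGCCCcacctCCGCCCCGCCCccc
Neither stretch holds the core of the antioxidant response element (TGACNNNGC), the C/EBP-ATF element core (TGATGNAA) or an E-box (CACGTG) on either strand. Of the 8 windows 1 holds the antioxidant core, that of G6pdx, as GCTCAGTCA on the opposite strand 57 bases before its start, and 10.2% of all 32851 windows of that length hold it. None of the 8 holds the C/EBP-ATF core or the E-box, which occur in 3.45% and 6.02% of all windows. A GC box occurs in 7 of the 8 windows and in 32.7% of all, and it lies once in the stretch of Pgd and at 3 places in that of Tkt, the last 2 of them sharing 1 base. A CCAAT box occurs in 2 of the 8 windows, those of Pgd and Taldo1, and in 33.8% of all. The windows of Pgd and Taldo1 end in the same 11 bases, TGATTGGCCAG, directly before their start sites. These matches describe letters within 250 bases and do not show that a factor binds there.

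The libraries held between 12.5 and 19.7 M counts. Levels are given as CPM (counts per M) after scaling by trimmed mean of M-values (TMM) factors, unless another scale is named. Fam210a itself was at 119, 136 and 162 CPM in Ctrl and 31.7, 28.6 and 44.2 CPM in Fam210aHKO. The hepatocyte markers Alb, Apoa1, Apoc3, Ttr, Serpina1a, Cps1, Hnf4a and Tat were present in every library, and 5 of these 8 fell, beside 13.5% of all tested genes. Alb, at 136499 and 74313 CPM on average, was not among the 5 (adjusted p = 0.449) but was called lower with the legacy form of the test (0.0423). In Fam210aHKO replicate 1, 6 genes exceeded 10-fold of their level in every other library, none of them a member of the pathway. Scaling by library totals in place of TMM moves the median log2 fold change of all tested genes by 0.45, from 0.02 to 0.47, and with it 42.7% of genes are called higher and 6.33% lower.

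**Figure D1:**
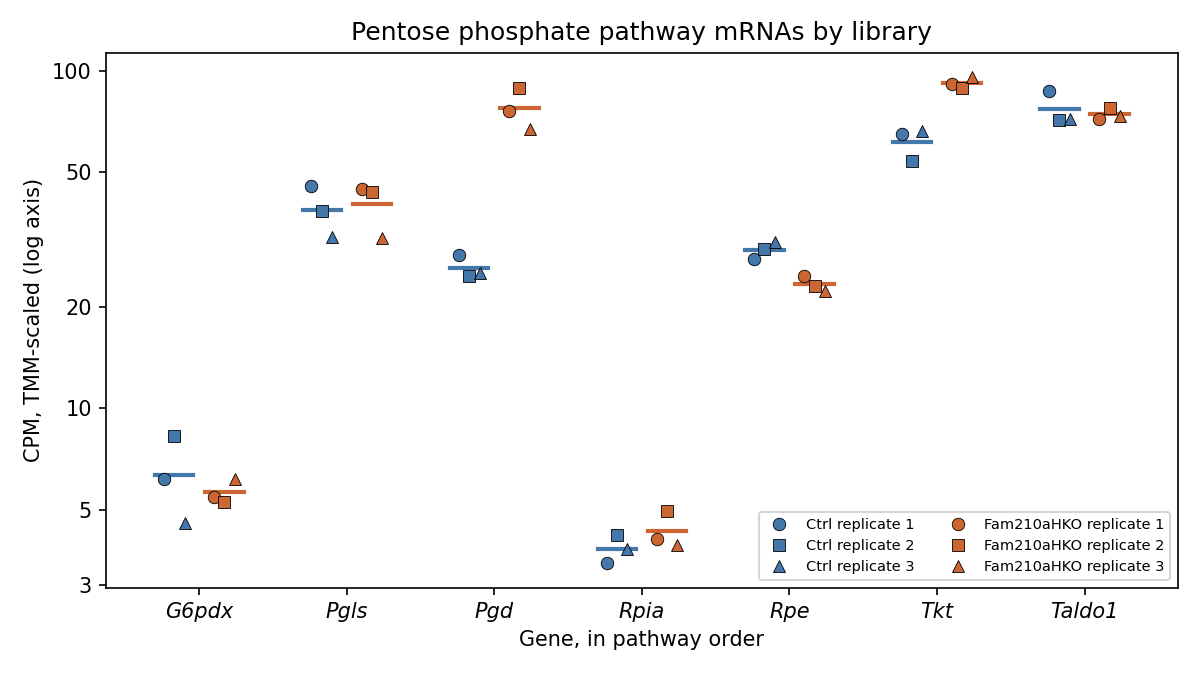
Level of each pathway mRNA by library. The vertical log axis is TMM-scaled CPM, symbols are the 3 replicates of each group and bars are group means. The Fam210aHKO libraries stand above every Ctrl library for Pgd (67.2 to 88.8 against 24.7 to 28.4 CPM) and Tkt, below every Ctrl library for Rpe, and overlap the Ctrl libraries for the other 4 genes.

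The oxidative arm opens with glucose-6-phosphate dehydrogenase, encoded by G6pdx on the X chromosome (74409483 to 74429194, mm10). Its mRNA was at 6.17, 8.28 and 4.57 CPM in the Ctrl libraries, replicate 1 first, and 5.45, 5.30 and 6.19 CPM in the Fam210aHKO libraries. Ctrl replicate 2 was the highest and Ctrl replicate 3 the lowest of the 6, so the knockout values lay within the control range. The log2 fold change was -0.16 (SE 0.243, adjusted p = 0.664), with a 95% interval from -0.70 to 0.37. The library counts behind these levels were only 68 to 141, and the sign turns without Ctrl replicate 2 (0.06). All 6 libraries had Y-linked Ddx3y at 91.4 to 138 CPM and Xist at no more than 0.487 CPM, the pattern of male tissue, so the groups, in which this X-linked gene was compared, did not differ in sex. The whole of G6pdx lies within Ikbkg on the opposite strand, and 418 of its exon bases (13.6%) are also Ikbkg exon. Ikbkg had 80.1 ± 10.6 CPM in Ctrl and 95.9 ± 12.2 CPM in Fam210aHKO (mean ± SD, n = 3), and without a stated strand setting reads from the shared bases cannot be told apart. The autosomal retrogene copy G6pd2 had 0 counts in every library.

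Pgls encodes 6-phosphogluconolactonase, which opens the lactone that G6pdx's enzyme makes (chromosome 8, 71592176 to 71601092). It was at 45.6, 38.4 and 32.1 CPM in Ctrl and 44.7, 43.8 and 32.0 CPM in Fam210aHKO. In each group replicate 3 was the lowest and the ranges nearly coincided. The log2 fold change was 0.05 (SE 0.182, adjusted p = 0.856; 95% interval -0.35 to 0.45). With library totals it was called higher (0.51, adjusted p = 0.0469), a value beside the 0.47 of the median gene under that scaling. Fam129c shares 776 of its exon bases (20.6%) on the same strand and had between 1 and 10 counts per library.

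Pgd encodes 6-phosphogluconate dehydrogenase, the enzyme of the second NADPH-yielding step, which releases ribulose 5-phosphate (chromosome 4, 149149991 to 149166771). It was at 28.4, 24.7 and 25.2 CPM in Ctrl and 75.7, 88.8 and 67.2 CPM in Fam210aHKO. The lowest knockout library stood well above the highest control library, and the groups did not overlap, as for 22.0% of tested genes in that direction. The gene rose 2.96-fold, or 1.56 on the log2 scale (SE 0.154, adjusted p = 4.83e-05; 95% interval 1.23 to 1.90). Of all tested genes, 4.11% had a larger log2 fold change. It was called higher under all 17 alternatives run, with log2 fold changes of 1.35 to 2.01. When single libraries were left out the range was 1.46 to 1.66.

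In the non-oxidative arm, Rpia and Rpe encode the enzymes that turn ribulose 5-phosphate into ribose 5-phosphate and xylulose 5-phosphate. Rpia (chromosome 6, 70765720 to 70792232) was at 3.48, 4.22 and 3.83 CPM in Ctrl and 4.11, 4.95 and 3.95 CPM in Fam210aHKO. The groups overlapped and replicate 2 was the highest in each. Its log2 fold change was 0.17 (SE 0.224, adjusted p = 0.618; 95% interval -0.32 to 0.66), from library counts of 40 to 90, and with library totals it was called higher (0.63, adjusted p = 0.0376).

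Rpe (chromosome 1, 66700831 to 66719805) was the 1 member with all knockout libraries below all controls. It was at 27.7, 29.6 and 31.1 CPM in Ctrl and 24.7, 23.0 and 22.2 CPM in Fam210aHKO, and 20.7% of tested genes were likewise separated downward. The log2 fold change was -0.34 (SE 0.142, unadjusted p = 0.0362, adjusted p = 0.102; 95% interval -0.65 to -0.03), which missed the threshold. It was called lower on the deposited FPKM with 1 of 2 pseudocounts (limma on log2(FPKM + 1), -0.37, adjusted p = 0.0374) and not with the other (log2(FPKM + 0.1), -0.40, adjusted p = 0.0815), whereas library totals turned the sign (0.12, adjusted p = 0.559). Kansl1l on the opposite strand shares 558 of its exon bases (17.9%) and was at 8.81 ± 0.501 and 7.06 ± 1.57 CPM.

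Tkt and Taldo1 encode transketolase and transaldolase, which shuttle carbon units between sugar phosphates and link the pathway back to glycolysis. Tkt (chromosome 14, 30548359 to 30574720) was at 64.8, 53.8 and 66.3 CPM in Ctrl and 91.2, 88.7 and 95.5 CPM in Fam210aHKO. The knockout libraries were all higher and closer to each other than the controls were. The gene rose 1.49-fold, or 0.57 on the log2 scale (SE 0.139, adjusted p = 0.0104; 95% interval 0.27 to 0.88), and 17.6% of tested genes had a larger one. It missed the threshold in 1 of the 17 alternatives, limma on log2(FPKM + 0.1) (0.51, adjusted p = 0.0533).

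Taldo1 (chromosome 7, 141392199 to 141402968) was at 87.0, 71.2 and 72.1 CPM in Ctrl and 71.7, 77.6 and 73.2 CPM in Fam210aHKO. Ctrl replicate 1 was the highest of the 6, and the 5 other libraries lay close together. The log2 fold change was -0.05 (SE 0.139, adjusted p = 0.826), with a 95% interval of -0.36 to 0.26.

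**Figure D2:**
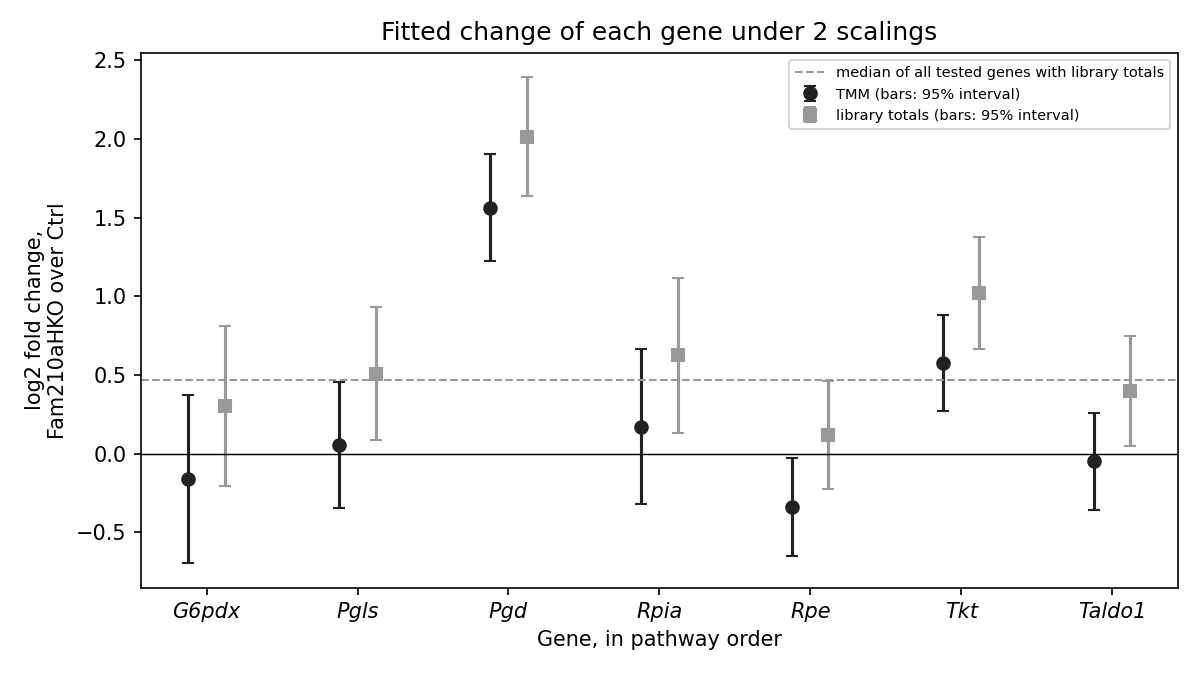
Fitted log2 fold change of Fam210aHKO over Ctrl for each gene (vertical axis), with 95% intervals, under TMM scaling (circles) and library totals (squares). The dashed line is the median of all tested genes with library totals, 0.47. Pgd (1.56 and 2.01) and Tkt (0.57 and 1.02) lie above 0 under both scalings, and Rpe, G6pdx and Taldo1 change sign between them.

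Ratios between members within a library do not depend on how libraries are scaled. The Pgd to Taldo1 count ratio was 0.327, 0.347 and 0.350 in Ctrl and 1.06, 1.15 and 0.918 in Fam210aHKO. Pgd counts were thus well below those of Taldo1 in every control and close to them in every knockout library. The Pgd to Tkt ratio was 0.439, 0.459 and 0.380 in Ctrl and 0.830, 1.001 and 0.704 in Fam210aHKO, and was higher in every knockout library than in any control. The Tkt to Taldo1 ratio was 0.744, 0.756 and 0.921 against 1.27, 1.14 and 1.30. The Rpe to Taldo1 ratio overlapped between the groups, at 0.319, 0.416 and 0.431 against 0.345, 0.296 and 0.304. Of the 21 ratios between 2 members 10 did not overlap, among them all 6 with Pgd, and 9 of the 10 hold Pgd or Tkt. Over all pairs of tested genes with counts in every library 44.6% of the ratios did not overlap, so 10 of 21 is near the background and only describes which members are involved. With 3 libraries against 3, the smallest two-sided p of an exact permutation test of a ratio is 0.1.

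**Figure D3:**
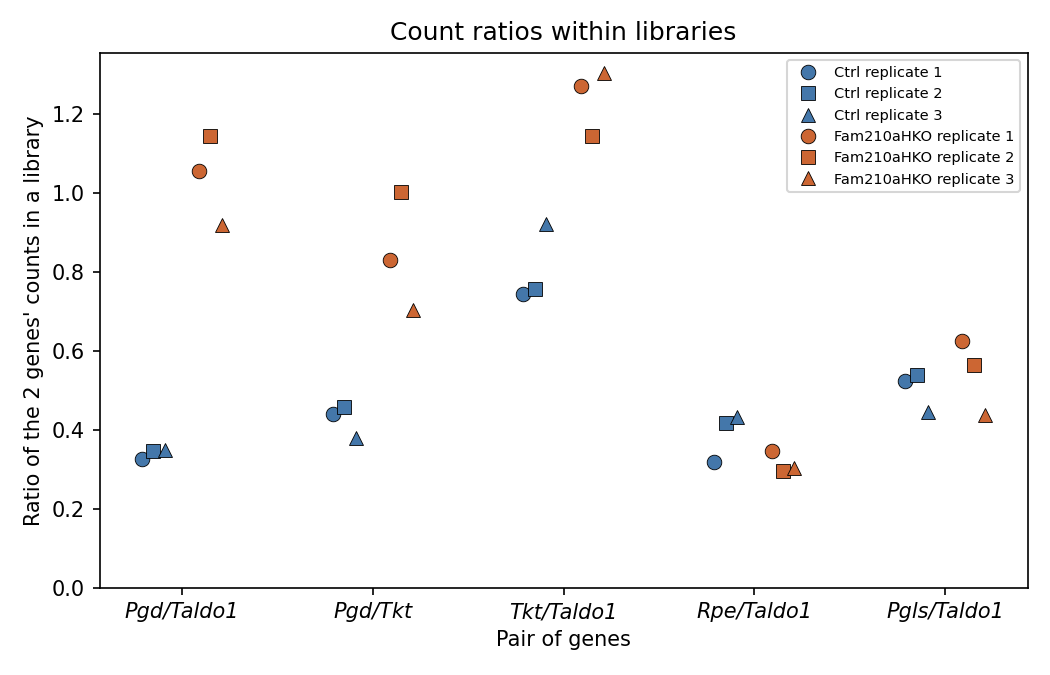
Ratio of the counts of 2 genes within each library (vertical axis, linear from 0) for 5 pairs, with 1 symbol per replicate. The ratios of Pgd to Taldo1, Pgd to Tkt and Tkt to Taldo1 are separated between the groups, and those of Rpe and Pgls to Taldo1 overlap.

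Within the pathway's mRNA the share of Pgd was higher and that of Taldo1 and Rpe lower in every knockout library than in any control, per length and in counts alike. Levels between genes were compared per length, on the authors' FPKM (fragments per kilobase of gene length and per M of a library size). Pgd made up 5.73%, 5.70% and 5.85% of the FPKM of the 7 genes in Ctrl and 14.8%, 16.6% and 13.8% in Fam210aHKO. The control shares of Pgd lay within a narrow band that the knockout libraries left by a wide margin. Tkt went from 11.4%, 10.9% and 13.5% to 15.6%, 14.5% and 17.2% of the FPKM. Its share of the 7 genes' counts overlapped between the groups, at 24.6%, 23.4% and 28.2% against 28.7%, 26.7% and 31.8%. Taldo1 held 52.1%, 48.9% and 49.7% in Ctrl and 41.5%, 43.0% and 44.7% in Fam210aHKO, and Rpe 11.6%, 14.2% and 14.9% against 9.995%, 8.87% and 9.46%. Shares sum to a whole, so a higher share of some members lowers that of others. Taldo1 itself overlapped between the groups in CPM (log2 fold change -0.05) and in FPKM. How often such shares separate in other sets of genes was not tested. In FPKM itself Pgd and Tkt were higher without overlap (18.9% of tested genes) and Rpe lower without overlap (23.7%). The summed CPM of the 7 was 230 to 263 in Ctrl and 300 to 332 in Fam210aHKO, whereas their summed FPKM overlapped, at 113, 96.4 and 99.1 against 109.5, 116 and 107.

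**Figure D4:**
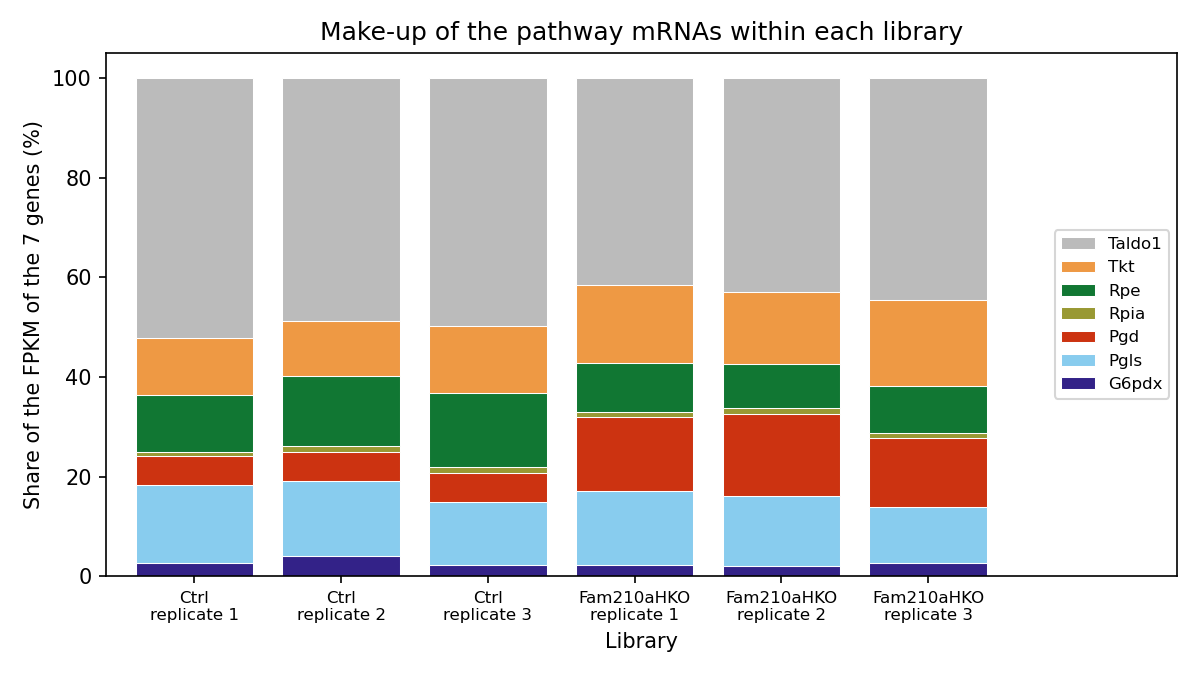
Share of each gene in the summed FPKM of the 7 genes (vertical axis, percent) for each library. The Pgd segment covers 5.70% to 5.85% in the 3 Ctrl libraries and 13.8% to 16.6% in the 3 Fam210aHKO libraries.

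Taldo1 had the highest level per length in both groups, at 51.8 ± 6.37 FPKM in Ctrl and 47.8 ± 2.27 FPKM in Fam210aHKO (mean ± SD, n = 3). In Ctrl it was followed by Pgls (15.02 ± 2.61 FPKM), Rpe (13.9 ± 0.855) and Tkt (12.3 ± 1.55), whose neighbouring values overlap, and then by Pgd (5.93 ± 0.512), G6pdx (3.01 ± 0.831) and Rpia (1.05 ± 0.0883), which do not. In Fam210aHKO the order after Taldo1 was Tkt (17.5 ± 0.855 FPKM), Pgd (16.8 ± 2.29) and Pgls (14.9 ± 2.45), which overlap as neighbours, then Rpe (10.5 ± 0.416), G6pdx (2.57 ± 0.249) and Rpia (1.13 ± 0.139). Pgd thus moved from the fifth place to the third. The gene length behind FPKM is the union of all annotated exons, for Pgls 3770 bases against 893 in its principal transcript. Per kilobase of the principal transcript Pgls is second in both groups (43.3 ± 7.56 and 45.0 ± 7.95 CPM per kilobase) and Pgd goes from the fourth place to the third.

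Among enzymes beside the pathway calls went in both directions. Of 12 listed paralogs and enzymes of ribose or sedoheptulose, 9 were tested, and 1 rose and 3 fell. Of all tested genes 14.0% were called higher and 13.5% lower. The list's median log2 fold change was -0.44, beside 0.02 over all tested genes. Prps2, which makes phosphoribosyl pyrophosphate from ribose 5-phosphate, rose from 9.16 ± 1.96 to 13.9 ± 0.715 CPM (adjusted p = 0.0412). That call was lost whichever single library was left out (adjusted p 0.0507 to 0.115). It was also lost with limma on log2(FPKM + 1) (0.0654) and on log2(FPKM + 0.1) (0.0867). Shpk, the sedoheptulose kinase, fell from 61.0 ± 8.39 to 32.2 ± 4.51 CPM (adjusted p = 0.00193), a log2 fold change of -0.92. Pgm2 fell from 231 ± 21.1 to 164 ± 6.32 CPM (adjusted p = 0.0217). Pgm2 was listed by its name alone and is counted among the 3 that fell. The name does not establish that its enzyme acts on ribose, which was not tested. Its fall is therefore not read as that of a ribose enzyme. It was not lower by the threshold under library totals (adjusted p = 0.83) or with no filter (0.0631). The same held without Ctrl replicate 1 (0.0699) or Fam210aHKO replicate 1 (0.0775) or 2 (0.0754). Rbks, the ribokinase, fell from 12.0 ± 1.41 to 7.77 ± 1.17 CPM (adjusted p = 0.0321). With the legacy form of the test Rbks had a smaller p than Pgm2 (adjusted p 0.0304 and 0.0312) and all 3 were called lower there too. H6pd, the endoplasmic reticulum counterpart of G6pdx, was at 521 ± 71.8 and 346 ± 130 CPM (adjusted p = 0.0986), and Tktl1, Tktl2 and G6pd2 had 0 counts. The balance of the list depended on the setting. With library totals 2 were higher and 1 lower, beside 42.7% and 6.33% of tested genes. The replicate number as a block gave 1 and 5, beside 17.8% and 18.0%. Without Ctrl replicate 1 or Fam210aHKO replicate 1 only 1 was lower.

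Genes of glucose 6-phosphate supply and use fell or were not called. Of 11 tested members 0 rose and 4 fell (median -0.14), beside 14.0% and 13.5% of all tested genes called higher and lower. Under library totals 4 were higher and 2 lower, beside 42.7% and 6.33%. Slc37a4, which carries glucose 6-phosphate into the endoplasmic reticulum, fell from 347 ± 48.4 to 141 ± 16.98 CPM (adjusted p = 0.000227), a log2 fold change of -1.30.

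Other enzymes listed as sources of NADPH or a related cofactor moved in both directions. Which cofactor each of them uses was not measured. Of 9 tested members 3 rose and 3 fell (median -0.47), beside 14.0% and 13.5% of all tested genes called higher and lower. Under library totals 4 were higher and 2 lower, beside 42.7% and 6.33%. The malic enzyme gene Me1 rose from 124 ± 24.5 to 224 ± 12.8 CPM (adjusted p = 0.00351), a log2 fold change of 0.85. Mitochondrial folate enzymes rose from low levels, Mthfd2 from 1.02 ± 0.599 to 8.58 ± 4.205 CPM (adjusted p = 0.000667) and Aldh1l2 from 0.0943 ± 0.101 to 2.16 ± 1.03 CPM (adjusted p = 0.000629). Their cytosolic counterparts fell, Aldh1l1 from 914 ± 126 to 344 ± 41.2 CPM (adjusted p = 0.00025) and Mthfd1 from 233 ± 33.2 to 125 ± 4.94 CPM (adjusted p = 0.00136).

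Among 10 antioxidant enzymes that use NADPH or a related cofactor 3 rose and 1 fell, beside 14.0% and 13.5% of all tested genes. Their median log2 fold change was 0.22, beside 0.02 over all tested genes. Under library totals 7 were higher and 0 lower, beside 42.7% and 6.33% of tested genes. The list's median was then 0.68, beside 0.47 over all tested genes. Nqo1, a quinone reductase, rose from 7.83 ± 3.13 to 16.0 ± 1.59 CPM (adjusted p = 0.0111; 0.0582 without Ctrl replicate 3). The carbonyl reductase gene Cbr3 rose from 0.815 ± 0.371 to 4.93 ± 2.91 CPM (adjusted p = 0.00473). Txnrd1, cytosolic thioredoxin reductase, rose from 138 ± 19.97 to 198 ± 17.6 CPM (adjusted p = 0.0286), a call lost on FPKM and without Ctrl replicate 2 or 3 or Fam210aHKO replicate 1 or 3 (adjusted p 0.0517 to 0.108). Nqo2 fell from 60.7 ± 5.39 to 37.2 ± 8.996 CPM (adjusted p = 0.0134), but not with library totals (0.274) or without Fam210aHKO replicate 2 (0.06). Without Ctrl replicate 3 only 1 of the list was higher, and without Fam210aHKO replicate 2 none was lower.

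Of 9 lipid synthesis enzymes 1 rose and 2 fell (median -0.08), beside 14.0% and 13.5% of all tested genes called higher and lower. Under library totals 3 were higher and 0 lower, beside 42.7% and 6.33%. The replicate block gave 2 higher and 4 lower, beside 17.8% and 18.0%. Sqle, the squalene epoxidase of cholesterol synthesis, rose from 11.5 ± 4.05 to 29.1 ± 8.34 CPM (adjusted p = 0.0044), a log2 fold change of 1.34. Fasn, the fatty acid synthase and a main NADPH user, fell from 137 ± 35.0 to 72.6 ± 20.1 CPM (adjusted p = 0.0112), a call lost under library totals (0.113). Dhcr7 fell from 36.1 ± 3.48 to 25.5 ± 2.85 CPM (adjusted p = 0.0302), but not with library totals (0.795), with no filter (0.0767), or without Ctrl replicate 3 (0.0974) or Fam210aHKO replicate 1 (0.108) or 2 (0.0855). Without each of those 3 libraries 1 of the list was lower.

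**Figure D5:**
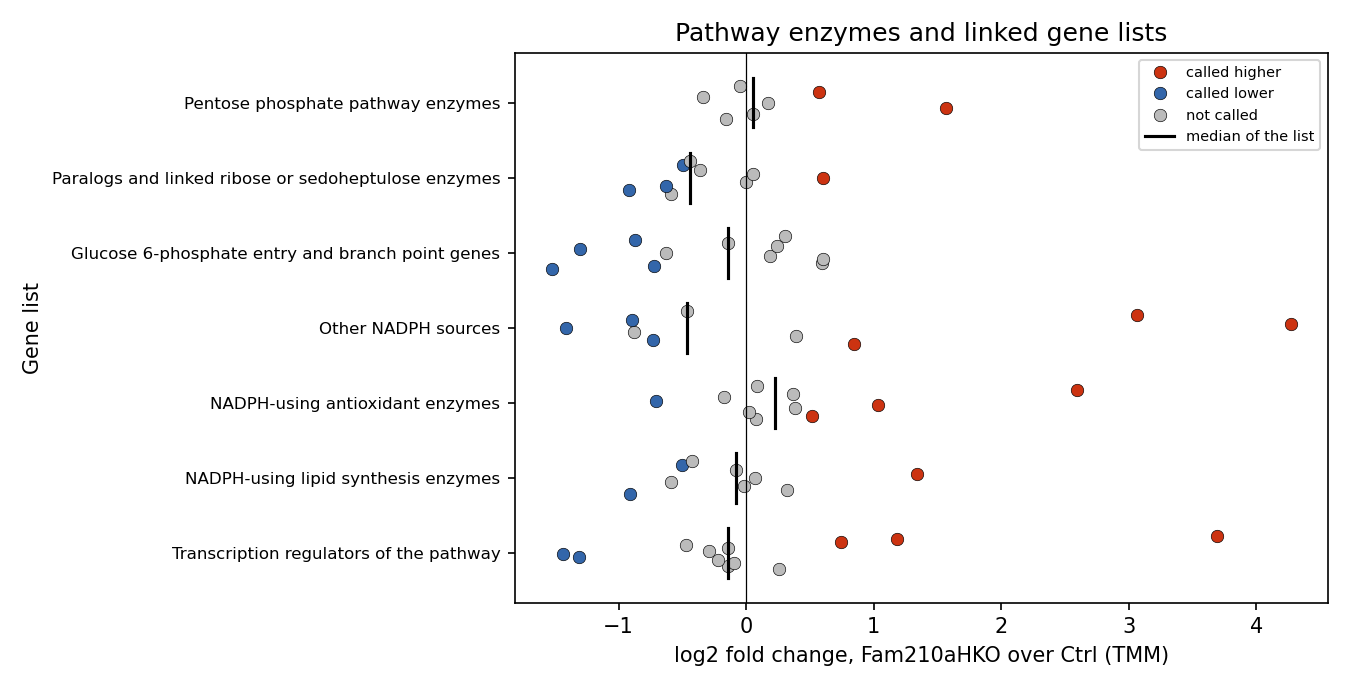
Log2 fold change of Fam210aHKO over Ctrl (horizontal axis, TMM scaling) for the tested genes of the pathway and of 6 linked lists, 1 point per gene, coloured by call, with a bar at each list's median. The pathway has 2 points called higher, Tkt at 0.57 and Pgd at 1.56, and its median is 0.05.

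Of 12 transcription regulators known to act on these enzymes 3 rose and 2 fell (median -0.14). Of all tested genes 14.0% were called higher and 13.5% lower. Under library totals 4 regulators were higher and 2 lower, beside 42.7% and 6.33% of tested genes. Myc rose from 3.10 ± 0.742 to 40.3 ± 20.6 CPM (adjusted p = 6.2e-05), Atf4 from 65.8 ± 1.20 to 149 ± 19.99 CPM (adjusted p = 0.000192) and Trp53 from 13.9 ± 0.436 to 23.3 ± 4.26 CPM (adjusted p = 0.00937). The regulators of sugar-driven and insulin-driven lipid synthesis fell, Mlxipl (ChREBP) from 68.0 ± 14.97 to 25.0 ± 9.38 CPM (adjusted p = 0.00231) and Srebf1 from 53.1 ± 21.3 to 21.4 ± 5.80 CPM (adjusted p = 0.00604). Nfe2l2, which encodes NRF2, was at 68.5 ± 6.89 and 81.8 ± 2.40 CPM (adjusted p = 0.187), with the groups not overlapping. These are mRNA levels and do not measure the activity of the factors.

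Some markers of other cells and of dividing cells were also called, beside 14.0% of all tested genes called higher and 13.5% lower. Their part in the rise of Pgd and Tkt was not tested. Of 6 proliferation markers 5 rose, and their summed level was 31.7 to 43.4 CPM in Ctrl and 103 to 149 CPM in Fam210aHKO. Of 10 Kupffer cell and macrophage markers 3 rose, with sums of 519 to 653 and 417 to 802 CPM. Of 6 cholangiocyte markers, 4 of them tested, 2 rose, with sums of 39.3 to 58.5 and 135 to 275 CPM. Those 2 were Epcam (2.28 ± 1.17 and 6.87 ± 2.66 CPM) and Spp1 (42.4 ± 8.75 and 200 ± 66.2 CPM). Spp1 made up most of the sum, and Krt19 (adjusted p = 0.0683) and Sox9 (0.589) were not called. Stellate cell markers had 1 of 7 higher, near the share of all tested genes (sums of 318 to 378 and 411 to 551 CPM). Endothelial markers had 2 of 6 lower (260 to 360 and 173 to 281 CPM). Neutrophil and lymphocyte markers summed to between 2.61 and 7.29 CPM in every library with 0 called of 3 tested in each list. Of 5 erythroid markers with a row 3 were tested and 1 of them fell, and the sums were 78.7 to 84.5 and 22.3 to 218 CPM. In whole-liver RNA, fewer cells of a type and less RNA per cell cannot be told apart.

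The genes most like each member were found by Pearson correlation of log2 CPM over the 6 libraries among all tested genes outside the pathway. For Pgd they were Armc10 (r = 0.998) and Ccne1 (0.997), and 592 genes had r over 0.95. For Tkt they were Fbxo34 (0.999) and Igf2r (0.997), with 253 such genes, and for Rpe Zfp946 (0.999) and Nudt7 (0.997), with 125. The members that overlapped between the groups had fewer: 32 for Pgls (Zfp932, 0.994, and Dpy30, 0.989), 30 for Rpia (Haus2, 0.998, and Ppp1ccb, 0.996), 11 for G6pdx (2200002D01Rik, 0.987, and 4732416N19Rik, 0.985) and 6 for Taldo1 (Gm46411, 0.978, and Slc18a1, 0.973). All points share the same 6 libraries in 2 groups, and r over so few points is a description.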

How the data were processed

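Poly-A mRNA of liver (poly-T beads, per the labels) was analysed in 3 Ctrl and 3 Fam210aHKO libraries, grouped by title. The authors deposited raw counts per Ensembl gene, without normalization, and FPKM, scaled by each gene's tabulated length and by a size that differs per library (55.4% to 60.1% of the count total in Ctrl, 81.6% to 86.3% in Fam210aHKO). Per the submitters' processing notes the tools were FastQC, Trimmomatic, STAR, featureCounts and DESeq2 on mm10. Strand and multimapping settings: not stated in the labels or headers. Library totals were 12.5 to 19.7 M counts.

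Counts were tested in edgeR 4.0.16 (R 4.3.3) with group as the only factor: filterByExpr with a minimum count of 10, TMM scaling, the quasi-likelihood F test (two-sided) and Benjamini-Hochberg adjustment over 13706 genes, with a call at an adjusted p under 0.05. The SE was derived from the log2 fold change and its F statistic. The fit was tested on simulated data. Coordinates and exons come from GENCODE mouse release 21 and equal the table's for all 7 genes. In a search for shared 100-base words, overlapping genes apart, no other gene's transcripts held over 0.376% of a member's words.

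The legacy form of that test (legacy=TRUE in glmQLFit) was run first. The other form was made the main test after the results of both had been seen, because it is the form of an earlier analysis of these data. The legacy form called 1908 genes higher and 1832 lower, against 1922 and 1852. It gave the same calls for all 7 members, but it called Alb lower, and the naming rule below would have picked Rbks in place of Pgm2.

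The members and lists were chosen with earlier results of these data known. Named were all members and, in each linked list, the called genes of smallest p, up to 3 higher and 2 lower; other genes were named beside a result they touch. A gene that the rule picks is not reported here. The level per principal transcript, the background of the ratios and the CCAAT and GC boxes were chosen after seeing the data.

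Replicate numbers come from the titles. Same-numbered libraries deviated weakly together from their group means (r = 0.245, 0.182 and 0.155), and other pairs had r from -0.141 to -0.0262. Deviations cancel within a group, which itself pushes the other pairs to negative values. The numbers may therefore pair the samples, but the labels do not state what they stand for. The main fit used group alone, so its SEs, intervals and p-values take no account of a pairing. The fit with the replicate number as a block is an alternative. Others were library totals, median-of-ratios and upper-quartile scaling, DESeq2 1.42.0, leaving low counts in, requiring 3 libraries with CPM above 1, limma-voom, limma 3.58.1 on log2(FPKM + 1) and log2(FPKM + 0.1), the legacy form and leaving out each library.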

Additional observations from a re-analysis of the deposited data

How the results depend on the processing

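Of the 17 alternatives, 2 changed how many of the 7 enzymes were called higher: 4 with library totals (Pgd, Tkt, Pgls and Rpia) and 1 with limma on log2(FPKM + 0.1), where Tkt missed the threshold. With limma on log2(FPKM + 1), 1 was called lower (Rpe). Over all tested genes that fit called 1505 higher and 1996 lower, and the fit on log2(FPKM + 0.1) 1538 and 1807. Leaving out single libraries gave 2 higher and 0 lower each time. Over all tested genes those runs called 1339 to 1897 higher and 1334 to 1834 lower. Over all tested genes the calls of 1922 higher and 1852 lower became 5846 and 868 with library totals. With the replicate number as a block they were 2434 and 2462, and the block changed no call among the 7 (Pgd 1.56, Tkt 0.58, Rpe -0.34, adjusted p = 0.0691). The sign turned only for enzymes not called: with library totals G6pdx had 0.303, Rpe 0.116 and Taldo1 0.399, and on both FPKM scales Pgls had -0.012 (pseudocount 1) and -0.013 (0.1). The cause was not tested. Without single libraries G6pdx ranged from -0.375 to 0.063, Pgls from -0.085 to 0.197 and Taldo1 from -0.116 to 0.039. The other genes named by the rule kept their sign in every alternative run. The legacy form of the quasi-likelihood test, run first and replaced after both results had been seen, gave 1908 higher and 1832 lower and the same calls for the 7. Depth limits G6pdx and Rpia most, with 40 to 141 counts per library.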
